A study of Mus musculus with 6 samples.

Results

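Keratins 7, 8, 18, 19, 20 and 23 are the keratin genes associated with simple, single-layered epithelia, and transcripts of all 6 were counted in sequenced RNA of biliary epithelial cells from mouse liver. They were taken by symbol (Krt7, Krt8, Krt18, Krt19, Krt20 and Krt23) from a table of 25302 genes, each symbol matched 1 row, and all 6 were among the 17153 genes with enough reads to be tested. The 3 Control samples had the genotype Sox9fl/fl, in which the gene of the transcription factor Sox9 is floxed. The 3 Sox9cKO samples had the genotype Sox9fl/fl:AlbCre+/-, which adds Cre recombinase under control of the albumin promoter. No Cre is named in the Control genotype, so the transgene and the loss of Sox9 cannot be told apart in this comparison. Albumin-driven Cre acts in hepatocytes and in the embryonic precursors they share with bile duct cells. The age, sex and number of animals behind each sample are not given in the sources used here, so the p-values measure the spread between these samples.

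Keratins form the intermediate filaments of epithelial cells. Each filament is built from pairs of an acidic type I chain and a basic type II chain, so a cell needs chains of both kinds. Among the 6 genes, Krt7 and Krt8 encode type II chains and Krt18, Krt19, Krt20 and Krt23 encode type I chains. Krt8 and Krt18 are the pair of simple epithelia in general and the main keratins of hepatocytes, whereas Krt7 and Krt19 are used as markers of bile duct cells. Krt20 is known from the intestinal lining, the stomach surface and the urothelium, and Krt23 is induced in the injured liver.

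The libraries held between 11883496 and 16191990 reads assigned to genes, and each value below is a normalized read count (reads over the size factor that scales the library). Sox9 itself was lower in every Sox9cKO sample (3165 to 3363) than in every Control sample (6043 to 6293), a log2 fold change of -0.91 at an adjusted p of 0.00501 (limma). Whether its reads come from the floxed segment is not known. The summed level of 10 biliary markers (among them Spp1, Epcam and Cftr) was 71680 to 111424 in Control and 64584 to 82320 in Sox9cKO. Of the 17153 genes tested, limma called 2.97% at an adjusted p-value under 0.05, 2.03% higher and 0.939% lower in Sox9cKO. The fold changes below are on the log2(normalized count + 1) scale, with Benjamini-Hochberg adjustment over all genes tested.

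Of the 6 keratins, Krt20 and Krt7 rose in Sox9cKO samples, and none fell. Krt8 and Krt18, by far the most abundant, had overlapping groups with a mean ratio near 1, and Krt23 and Krt19 had higher values in every Sox9cKO sample than in any Control sample without passing the test. The 2 calls among 6 members stand against the 2.03% of all genes called higher. In 4 of the 6 genes the groups did not overlap, all with Sox9cKO above Control, against 13.4% of tested genes (24.2% in either direction). The members had a median log2 fold change of 0.64, compared with 0.036 over all genes tested. With other tests on the same samples, edgeR also called 2 of the 6 higher, where it called 1.82% of genes higher and 1.04% lower (2.86% in all). DESeq2 called 3 higher, against 4.21% of genes higher and 2.88% lower (7.08%). Blocking on the replicate number, limma called 3 higher, against 5.06% higher and 2.99% lower (8.05%), and edgeR called 3 higher, against 3.87% and 2.89% (6.76%). The third gene was Krt23 in each of these. In bulk samples, more transcript per cell and more cells that carry the transcript cannot be told apart.

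**Figure D1:**
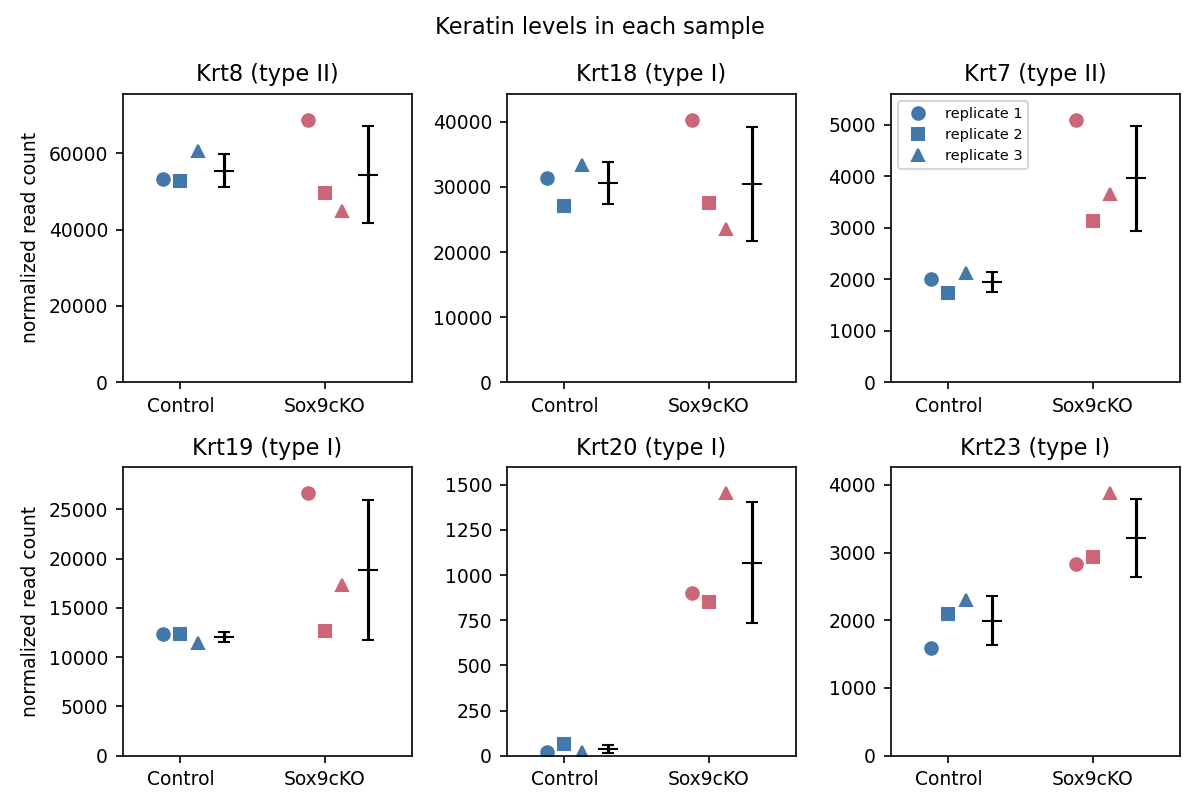
Normalized read counts (vertical axes, each from 0) of the 6 keratins in the 3 Control (blue) and 3 Sox9cKO (red) samples, with the replicate numbers as marker shapes and black bars for the mean and SD of each group. Krt20, Krt7, Krt23 and Krt19 lie higher in all Sox9cKO samples than in all Control samples, while Krt8 and Krt18 overlap.

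The promoters of the genes that were called, Krt20 and Krt7, are shown together with that of Krt8, whose level overlapped between groups. Each sequence is the 250 bases before the RefSeq transcription start (build GRCm38.p6), written in the direction of transcription. RefSeq promoter entries were matched for 5 of the 6 keratins (Krt7, Krt8, Krt18, Krt20 and Krt23). Krt20 lies at chr11:99438154-99438403 on the minus strand, Krt7 at chr15:101412153-101412402 on the plus strand and Krt8 at chr15:102004343-102004592 on the minus strand. Capitals mark the motifs searched for.
Krt20: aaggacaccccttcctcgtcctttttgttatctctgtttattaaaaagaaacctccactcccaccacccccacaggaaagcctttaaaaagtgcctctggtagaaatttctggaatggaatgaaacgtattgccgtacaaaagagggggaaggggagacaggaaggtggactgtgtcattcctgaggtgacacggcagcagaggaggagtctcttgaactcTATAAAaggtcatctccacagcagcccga
Krt7: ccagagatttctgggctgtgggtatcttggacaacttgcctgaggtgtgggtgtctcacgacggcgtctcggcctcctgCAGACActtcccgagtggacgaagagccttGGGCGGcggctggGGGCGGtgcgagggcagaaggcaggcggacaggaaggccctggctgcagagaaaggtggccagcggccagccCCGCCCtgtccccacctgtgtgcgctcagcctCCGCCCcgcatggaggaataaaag
Krt8: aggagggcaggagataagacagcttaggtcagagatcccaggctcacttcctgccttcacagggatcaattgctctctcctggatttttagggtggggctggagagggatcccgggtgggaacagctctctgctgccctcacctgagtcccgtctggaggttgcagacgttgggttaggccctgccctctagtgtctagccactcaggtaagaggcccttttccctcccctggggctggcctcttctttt
The motifs, read on both strands, were the SOX core written as ACAAAG or as ACAATG, the AP-1 site TGACTCA or TGAGTCA, the TATA box TATAAA, the GC box GGGCGG and the SMAD-type motif CAGACA. No matches overlapped in these windows. In the Krt20 window the capitals are a TATA box at -29 to -24, counting back from -1 at the base before the start. In the Krt7 window they are 4 GC boxes, the nearest at -24 to -19, and a CAGACA at -171 to -166. The Krt8 window held none of these letters. Krt18 held an ACAAAG at -203 to -198 and a CAGACA, and Krt23 an ACAATG at -90 to -85. Over the 32851 promoter windows of the same length in the table, TATAAA was found in 12.4%, GGGCGG in 32.7%, CAGACA in 17.1%, ACAAAG in 16.5%, ACAATG in 10.7% and the AP-1 site in 4.46%. These matches only describe the letters in these windows.

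Krt20, the type I chain of intestinal and urothelial surface cells, changed most. Its normalized read counts in replicates 1, 2 and 3 were 22.7, 65.0 and 23.0 for Control and 902, 852 and 1454 for Sox9cKO. All Sox9cKO samples were far above all Control samples, and the lowest of them was 13.1 times the highest Control sample. The mean rose from 36.9 ± 24.3 to 1069 ± 334 (SD, n = 3), which is 4.95 on the log2 scale (standard error 0.43; adjusted p by limma 0.00327). On the linear scale this is 31.0-fold, with a 95% confidence interval from 15.5 to 62.2. Only 3 of the 17153 tested genes had a larger positive fold change. By mean level, Krt20 ranked 12966th of 25302 genes in Control and 2668th in Sox9cKO. No 50-base stretch of its transcript occurs in a transcript of another gene of the GENCODE annotation, so its reads are not shared with a known copy.

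Krt7, the type II chain that marks bile ducts, rose by about the size of change of which the test recovered 10.6% on simulated counts. Its normalized read counts were 1999, 1732 and 2113 in Control and 5093, 3127 and 3653 in Sox9cKO. The groups did not overlap, and the lowest Sox9cKO sample was 1.48 times the highest Control sample. The log2 fold change was 0.997 (standard error 0.19; adjusted p by limma 0.0408). The ratio of the group means was 2.03, and the 95% confidence interval of the linear fold change ran from 1.46 to 2.72. Leaving out any 1 sample other than Sox9cKO replicate 2 ended the call of Krt7 (limma, adjusted p 0.0559 to 0.153), whereas without Sox9cKO replicate 2 it was called at an adjusted p of 0.0379 (limma). Its log2 fold change in these fits stayed between 0.80 and 1.15.

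Krt23, a type I chain described in injured liver and in the gut, had normalized read counts of 1590, 2094 and 2305 in Control and 2837, 2931 and 3876 in Sox9cKO. All 3 Sox9cKO values lay above the Control values, and the highest of both groups came from replicate 3. Its log2 fold change of 0.69 (standard error 0.18) did not pass the threshold (limma, adjusted p 0.109). It passed when the replicate number was added as a block, at an adjusted p of 0.0142 (limma). The 95% confidence interval on the linear scale ran from 1.19 to 2.18 before adjustment for the number of genes tested.

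Krt19, the type I chain most used to mark bile duct cells, was nearly constant among Control samples, with normalized read counts of 12338, 12328 and 11480 and a coefficient of variation of 4.09%. The Sox9cKO samples held 26648, 12666 and 17293, a coefficient of variation of 37.7%. They thus ranged from a value just above the highest Control sample (1.03 times) to more than any other sample by a wide margin in replicate 1. The log2 fold change of 0.58 (standard error 0.25) did not pass the threshold (limma, adjusted p 0.292). Without Sox9cKO replicate 1 the log2 fold change was 0.30 and without Sox9cKO replicate 2 it was 0.83, so single samples set its size.

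Krt8, the common type II partner, had normalized read counts of 53258, 52609 and 60518 in Control and 68765, 49659 and 44817 in Sox9cKO. Sox9cKO replicate 1 was the highest and replicates 2 and 3 the lowest of all samples, so the groups overlapped. Its log2 fold change was -0.049 (standard error 0.19; adjusted p by limma 0.929), and the 95% confidence interval of the linear fold change ran from 0.713 to 1.31. Krt18, its type I partner, held 31318, 27031 and 33305 in Control and 40328, 27489 and 23607 in Sox9cKO. Here too replicate 1 was highest and replicate 3 lowest in Sox9cKO. The log2 fold change was -0.036 (standard error 0.21; adjusted p by limma 0.956), and the linear interval ran from 0.691 to 1.38. Changes of either gene inside these intervals are not resolved by these samples. Both estimates turned positive without Control replicate 3, Sox9cKO replicate 2 or Sox9cKO replicate 3, with Krt8 then at most 0.078 and Krt18 at most 0.13.

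Part of the Krt8 signal can be shared with a copy. Of the 50-base stretches of the Krt8 transcript, 26.9% also occur in the processed pseudogene Krt8-ps and 2.78% in Gm36026, which overlaps Krt8 on the opposite strand. The table listed Krt8-ps at 4022, 4027 and 4954 normalized reads in Control and 5562, 3991 and 3448 in Sox9cKO. These values followed those of Krt8 sample by sample, at between 7.55% and 8.19% of its level. With the Krt8-ps reads added to Krt8, an alternative chosen after the data were examined, the log2 fold change was -0.047 (limma, adjusted p 0.933). For the other 5 keratins at most 0.720% of such stretches (Krt18) occurred in another gene. Whether the counting used the strand is not given in the sources used here.

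Levels of different keratins can be compared only per length of transcript. Dividing by the principal GENCODE transcript gave, in Control, 28326 ± 2242 normalized counts per kb for Krt8 and 21261 ± 2231 for Krt18 (SD, n = 3). Krt19 followed at 7645 ± 313, Krt23 at 1276 ± 235, Krt7 at 476 ± 47.8 and Krt20 at 19.2 ± 12.6. In Sox9cKO the order of these levels per kb was the same, from Krt8 (27790 ± 6467) and Krt18 (21207 ± 6090) through Krt19 (11973 ± 4520), Krt23 (2054 ± 367) and Krt7 (967 ± 249) to Krt20 (555 ± 173). Neighbours in this order whose ranges overlapped in Sox9cKO were Krt8 with Krt18, and Krt18 with Krt19. Within each sample, however, Krt8 was above Krt18 and Krt18 above Krt19. The Krt7 transcript in this annotation is 4094 bases long, of which 1371 are coding. Per kb of coding sequence, Krt7 stood at 1421 ± 143 and Krt23 at 1577 ± 290 in Control, and at 2887 ± 742 and 2539 ± 454 in Sox9cKO. The order of this pair in Sox9cKO therefore depends on the length used, and their ranges overlap in both groups.

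**Figure D2:**
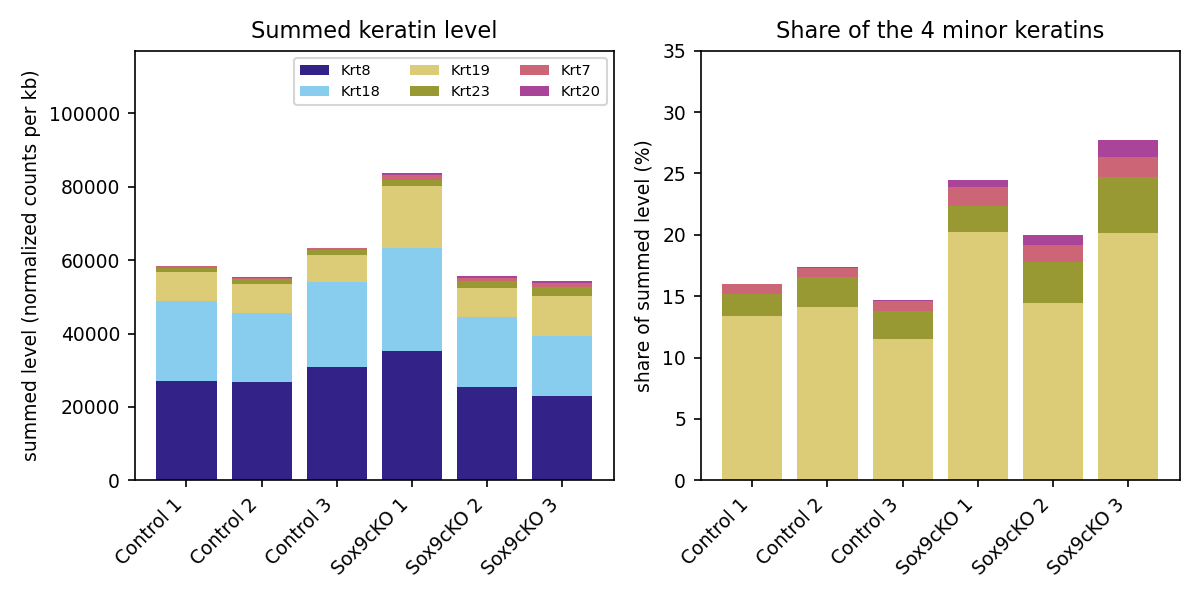
Summed length-scaled level of the 6 keratins in each sample (left, normalized counts per kb) and the share of that sum held by Krt19, Krt23, Krt7 and Krt20 (right, percent). The sum differs little between groups apart from Sox9cKO replicate 1, while the share of these 4 keratins is between 20.0% and 27.7% in Sox9cKO and between 14.7% and 17.4% in Control.

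The total of the 6 keratins per kb was 58339, 55297 and 63370 in Control and 83619, 55608 and 54413 in Sox9cKO. One Sox9cKO sample, replicate 1, stood above all others and replicate 3 was the lowest of the 6, so the groups overlapped. The mean log2 difference was 0.10 (exact permutation test over samples, two-sided, p = 0.90), and without Sox9cKO replicate 1 it was -0.099. The composition of the total differed more clearly. Krt8 and Krt18 together made up 84.0% ± 1.37 of the sum in Control and 75.9% ± 3.89 in Sox9cKO (SD, n = 3), with no overlap between groups. The 4 other keratins held 16.0%, 17.4% and 14.7% in Control and 24.4%, 20.0% and 27.7% in Sox9cKO, most of it Krt19. Krt20 went from between 0.0189% and 0.0610% of the sum to between 0.560% and 1.39%, so even after its rise it was a minor part of this transcript total.

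The balance of type I to type II transcripts lay slightly more towards type I in the Sox9cKO samples. The ratio of the summed type I to the summed type II levels per kb was 1.11, 1.03 and 1.02 in Control and 1.30, 1.13 and 1.29 in Sox9cKO. All Sox9cKO ratios lay above all Control ratios, with a mean log2 difference of 0.24 (exact permutation test, two-sided, p = 0.10, the smallest p that 3 against 3 samples can give). Per kb of coding sequence the log2 difference was 0.23.

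Ratios to Krt8 within a sample do not depend on the size factor, and 5 such ratios were compared. The length-scaled log2 ratio of Krt18 to Krt8 was -0.42 ± 0.097 in Control and -0.40 ± 0.078 in Sox9cKO (SD, n = 3), a difference of 0.013 (exact permutation test, two-sided, p = 0.80). The 2 genes thus kept their proportion to each other in every sample, between 0.514 and 0.588 Krt18 reads per Krt8 read, also in Sox9cKO replicate 1 where both were high. Relative to Krt8, Krt7 was higher in Sox9cKO by 1.05, Krt19 by 0.63, Krt20 by 5.05 and Krt23 by 0.74 on the log2 scale. For these 4 keratins no Sox9cKO ratio overlapped a Control ratio. They are the same 4 genes whose levels did not overlap, so this is not a separate result. The share of all genes with such a ratio to Krt8 is not given here. Each of the 4 ratios had an exact permutation p of 0.10, the smallest possible. After Benjamini-Hochberg adjustment over the 5 ratios it was 0.125, so the design cannot reach the threshold.

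**Figure D3:**
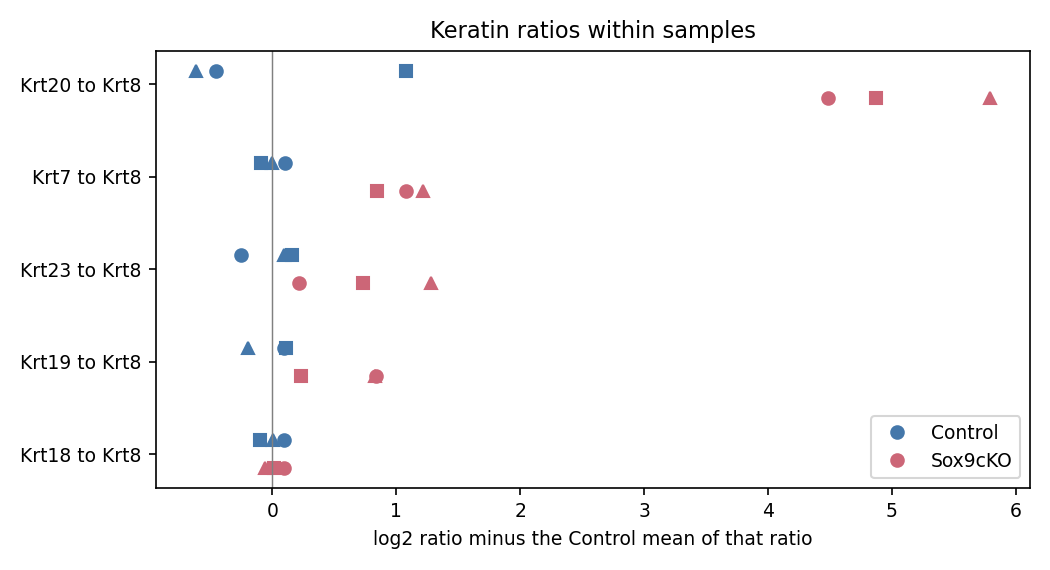
Log2 ratio of each keratin to Krt8 in every sample, minus the Control mean of that ratio (horizontal axis), for 3 Control (blue) and 3 Sox9cKO (red) samples with replicate numbers as marker shapes. Krt18 stays within about the Control spread, and the ratios of Krt19, Krt23, Krt7 and Krt20 are higher in all Sox9cKO samples.

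Across the 6 samples the keratins fell into patterns that can be described by correlation of their log2 values. Points share the libraries and the group difference, so no test is given. Krt8 and Krt18 had a Pearson r of 0.97, Krt7 and Krt19 of 0.89, Krt20 and Krt23 of 0.88 and Krt7 and Krt20 of 0.86. Krt8 was only weakly related to Krt7 (0.23) and to Krt20 (-0.21). Within Sox9cKO, Krt7, Krt8, Krt18 and Krt19 were highest in replicate 1, while Krt20 and Krt23 were highest in replicate 3.

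Profiles of other tested genes were compared with each keratin over the same 6 samples. Genes with provisional symbols (starting with Gm and a digit or with ENSMUS, or ending in Rik) were left out. Among the rest, the 2 with the most similar profile to each keratin were as follows. For Krt20 they were Snai3, a Snail-family transcription factor gene (r = 0.997), and Cpsf2 (0.994). For Krt7 they were Slit3, which encodes a secreted guidance ligand (0.998), and Col15a1, a basement membrane collagen (0.997). Krt19 was most like Meg3, a maternally expressed non-coding RNA (0.996), and Lox, which encodes lysyl oxidase (0.992). Krt23 was most like Med15 and Larp4b (both 0.994), Krt8 most like Rpl28 (0.998) and Dnttip2 (0.994), and Krt18 most like Ppie (0.995) and Actb (0.990), the cytoplasmic beta actin. Of these 12 genes, Slit3 (log2 fold change 3.43, adjusted p 0.0211) and Snai3 (2.05, adjusted p 0.0211) were called by limma. With the replicate block, limma also called Col15a1 (adjusted p 0.0326) and Larp4b (adjusted p 0.0282). Slit3 lost its call in 4 and Snai3 in 5 of the 6 fits with 1 sample left out. These genes were picked for their r among those of the 17153 tested genes that were not left out, and r describes these 6 samples only.

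The remaining keratins of the table, mostly those of stratified epithelia, skin and hair, numbered 30, and 11 of them had enough reads to be tested. None was called by limma, against 7 with an unadjusted p under 0.05 (17.8% of all genes tested), 1 called by edgeR, 6 by DESeq2, and 4 by limma with the replicate block. Their median log2 fold change was -0.67, against 0.036 for all genes, and 8 of the 11 values were negative. Krt13, which holds the median, and Krt76 reached the minimum for testing only through Control values. Krt12 and Krt36 reached it only through Sox9cKO values. The directions of these genes were thus favoured by the filter, and the median and the count depend on it in part. The 4 most abundant were Krt80, Krt17, Krt78 and Krt15. Krt78, which lies next to Krt8, had 345, 523 and 491 normalized reads in Control and 44.8, 102 and 205 in Sox9cKO. The groups did not overlap, and Krt78 stood at -2.17 on the log2 scale, with an adjusted p of 0.0752 by limma (0.00951 when blocked on the replicate number, 0.0336 without Sox9cKO replicate 3, and 0.000514 by DESeq2). Krt17, a type I keratin of stressed and regenerating epithelia, went the other way, with 88.3, 166 and 158 in Control and 1012, 587 and 239 in Sox9cKO (log2 fold change 1.97, limma adjusted p 0.104). Krt80 stood at -0.55 on the log2 scale, with an adjusted p of 0.109 by limma, and Krt15 overlapped between groups. The 4 genes called with the replicate block were Krt78, Krt79, Krt4 and Krt76. Their log2 fold changes were -2.17, -2.85, -1.61 and -2.29, and without the block their adjusted p-values by limma ran from 0.0504 for Krt4 to 0.125 for Krt79. Krt76 reached the minimum for testing only through its Control values (mean 17.4, against 2.79 in Sox9cKO).

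**Figure D4:**
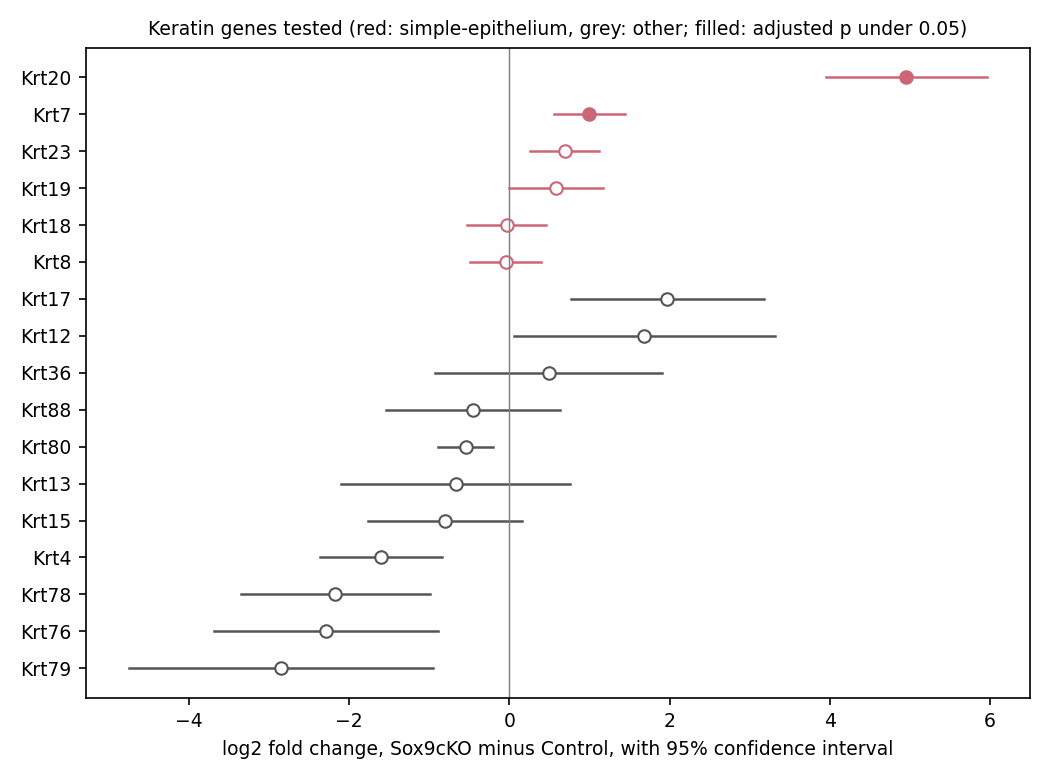
Log2 fold changes (Sox9cKO minus Control, horizontal axis) with 95% confidence intervals of the 6 simple-epithelium keratins (red) and the 11 other keratins tested (grey). Filled points had an adjusted p-value under 0.05, which holds for Krt20 and Krt7.

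Keratin genes lie in 2 clusters, the type I genes on chromosome 11 and the type II genes, with Krt18 at the end, on chromosome 15. Krt20 and Krt23 are adjacent coding genes in the first cluster, and Krt8 and Krt18 are adjacent in the second and on opposite strands. Split by chromosome, a split made after the values were seen, the other keratins differed in their pattern. On chromosome 15, 11 of the 13 had all Sox9cKO values under all Control values and none the reverse. On chromosome 11 this held for 2 of 17, and Krt17 had the reverse. Of all 25302 genes 13.6% had Sox9cKO values under all Control values, as did 19.7% of those below the minimum for testing and 10.8% of those tested. The run from Krt71 to Krt78, in gene order, showed this in every gene of the table, with Control means from 4.06 (Krt71) to 453 (Krt78). The table holds genes with at least 10 reads over the 6 samples. Krt71, Krt72, Krt73, Krt2, Krt1, Krt77 and Krt76 had at most 5 reads in any Sox9cKO sample. They are in the table through their Control reads, as are Krt31 and Krt32 on chromosome 11. The direction of these genes was fixed by that and supports nothing. Among the 11 other keratins tested, 5 had Sox9cKO values under all Control values (Krt80, Krt78, Krt79, Krt4 and Krt76), all on chromosome 15. Of these, Krt76 reached the minimum for testing only through its Control values. Krt7, which rose, lies before that run with Krt87 and Krt88 in between, and Krt8 directly follows it. Krt87, Krt88 and Krt8 overlapped between groups. Most genes of the run had too few reads to be tested, and neighbours in a cluster are not independent points.

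**Figure D5:**
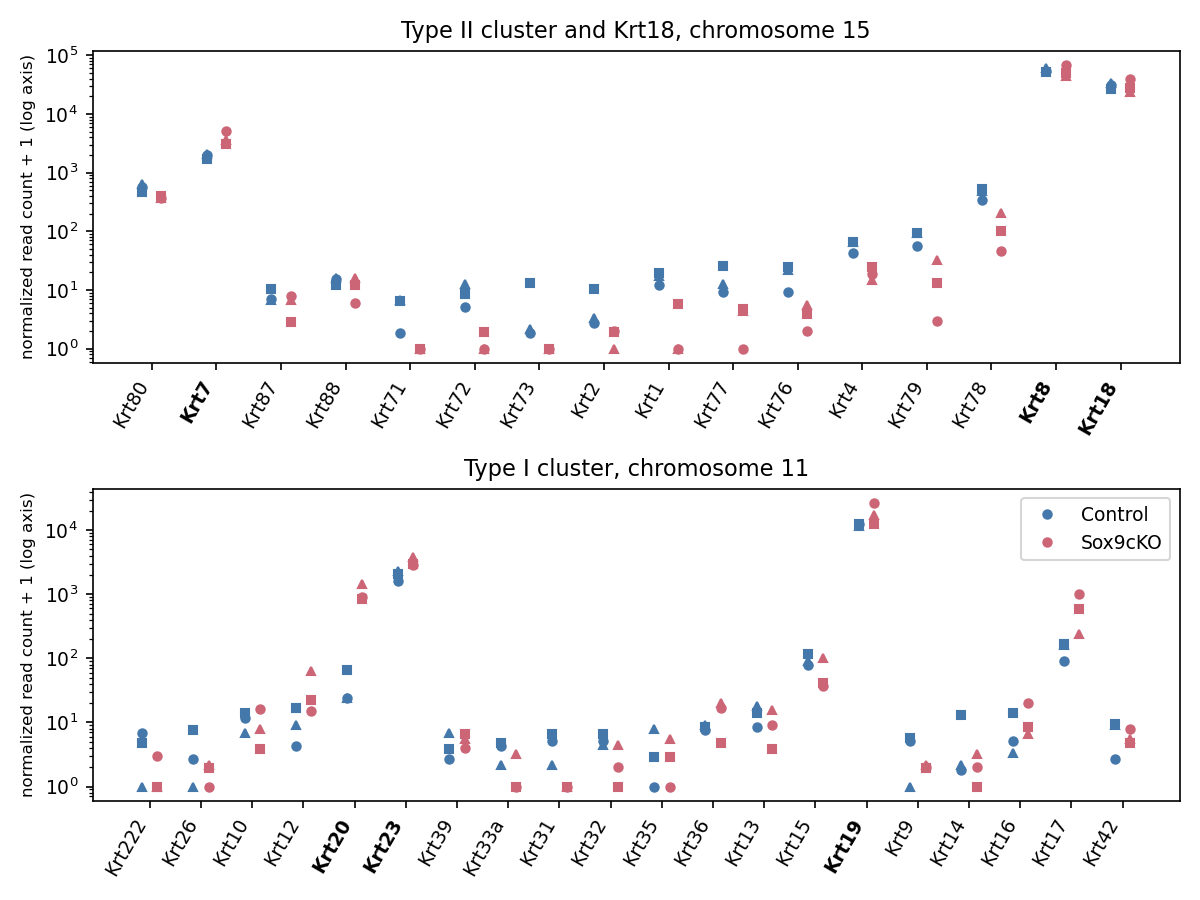
Normalized read count + 1 (log axis) in each sample for the keratin genes of the table, in gene order along each cluster, not to distance, with Control in blue and Sox9cKO in red. Members are in bold. On chromosome 15 the genes from Krt71 to Krt78 lie lower in Sox9cKO, while Krt7 is higher and Krt8 and Krt18 overlap. The genes from Krt71 to Krt76 are in the table only through their Control reads.

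Keratin filaments are held at desmosomes and hemidesmosomes by plakins and related proteins. Of 17 such anchor genes tested, limma called 1 higher and none lower, against 2.03% and 0.939% of all genes tested. Their median log2 fold change was 0.28, against 0.036 for all genes. An unadjusted limma p under 0.05 was found for 6 of the 17, against 17.8% of all genes. The called gene was Dst, which encodes the plakin dystonin, with 6662, 8495 and 8495 normalized reads in Control and 12757, 22896 and 23239 in Sox9cKO (log2 fold change 1.27, limma adjusted p 0.0448). This call was lost with edgeR (adjusted p 0.0521) and on leaving out any 1 sample other than Sox9cKO replicate 1 (limma, adjusted p up to 0.180). With the replicate block, Plec, the gene of plectin, was also called higher (log2 fold change 0.56, limma adjusted p 0.0432) and Eppk1, the gene of the keratin-binding epiplakin, lower (-0.72, limma adjusted p 0.0110). Eppk1 had 7448, 7758 and 10363 normalized reads in Control and 4745, 5078 and 5506 in Sox9cKO, without overlap. Of 15 tested genes whose proteins bind, modify or degrade keratins, none was called by limma or edgeR and DESeq2 called 1. An unadjusted p under 0.05 was found for 4 of the 15, near the 17.8% of all genes tested. Tgm2, a transglutaminase that cross-links keratins, was called with the replicate block alone among them (log2 fold change 0.75, limma adjusted p 0.00681). Of 13 other intermediate filament genes (vimentin, lamins, neurofilaments and others), none was called by limma, edgeR or DESeq2. An unadjusted limma p under 0.05 was found for 3 of them, against 17.8% of all genes tested. The replicate block added Nefl, a neurofilament gene with a mean of 7.21 normalized reads in Control and 27.4 in Sox9cKO (log2 fold change 1.72, limma adjusted p 0.0459). Nefl reached the minimum for testing only through its Sox9cKO values, so its direction was favoured by the filter.

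Of 13 tested transcription factors of simple epithelia, limma called 1 lower and none higher, against 0.939% and 2.03% of all genes tested. Their median log2 fold change was -0.26, against 0.036 for all genes. An unadjusted limma p under 0.05 was found for 5 of the 13, against 17.8% of all genes. The called gene was Ovol2, which maintains epithelial identity. It had 49.6, 29.7 and 44.9 normalized reads in Control and 10.9, 11.3 and 14.7 in Sox9cKO (log2 fold change -1.65, limma adjusted p 0.0458). Its call was lost in each of the 6 fits that left out 1 sample (limma, adjusted p up to 0.201). With the replicate block, limma called 4 lower, among them Ehf, Grhl2 and Ovol2, and 1 higher, Hnf4a. Over all genes it called 2.99% lower and 5.06% higher. Ehf, an epithelial ETS factor, held 7344, 5592 and 7285 in Control and 3861, 3562 and 4542 in Sox9cKO. Grhl2, a grainyhead factor of epithelial junctions, held 1521, 995 and 1389 in Control and 706, 610 and 820 in Sox9cKO. Cdx2, the intestinal homeobox factor, had at most 4 normalized reads in any sample and was not tested. Of 17 surface and junction genes of simple epithelia, none was called by limma or edgeR. An unadjusted limma p under 0.05 was found for 4 (17.8% of all genes), and DESeq2 called 2 (7.08% of all genes). With the replicate block, limma called Spint1 (log2 fold change 0.53, adjusted p 0.0224) and Spint2 (0.46, adjusted p 0.0367) higher, both inhibitors of membrane serine proteases. Epcam, the epithelial adhesion molecule of this list, overlapped between groups (log2 fold change -0.16).

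Markers of other cells that carry these keratins were examined beside the results. The summed level of 10 hepatocyte markers, cells that carry Krt8 and Krt18 only, was 22661 to 35311 in Control and 30039 to 45929 in Sox9cKO, mostly Alb, and of the 9 tested limma called Fgb (log2 fold change 3.62, adjusted p 0.00319). The replicate block added Hnf4a (0.75, limma adjusted p 0.0170). Of the 9 log2 fold changes, 7 were positive and 2 negative, Ttr at -0.44 and Cyp3a11 at -0.028. The groups overlapped for all hepatocyte markers but Fgb and Hnf4a. The sum of 7 mesothelial markers, cells with Krt7, Krt8, Krt18 and Krt19, was 966 to 1040 in Control and 1207 to 2244 in Sox9cKO. Within that list Msln, the mesothelin gene, rose from 335 ± 53.9 to 1408 ± 505 (SD, n = 3; log2 fold change 2.01, limma adjusted p 0.0159), while Upk3b was at 80.7, 65.0 and 74.9 in Control and 44.8, 35.9 and 43.0 in Sox9cKO. Without Msln the other 6 summed to 598, 768 and 628 in Control and 483, 380 and 586 in Sox9cKO, lower in every Sox9cKO sample, most of it Gpm6a (475 ± 73.6 and 294 ± 72.1, SD, n = 3). Single markers went both ways, with 4 positive and 3 negative log2 fold changes among the 7. Wt1 was higher in every Sox9cKO sample (0.77, limma adjusted p 0.292), and Muc16 stood at 1.03 with overlapping groups (limma adjusted p 0.381). Of 10 intestinal and gastric markers, 7 were in the table and 5 were tested. Cdh17, an intestinal cadherin, had 9.25, 12.1 and 4.61 normalized reads in Control and 38.8, 55.8 and 56.6 in Sox9cKO (log2 fold change 2.48, limma adjusted p 0.0235). Muc5ac, of the same list, went the other way, with 15.1, 18.6 and 12.7 in Control and 6.96, 7.56 and 4.53 in Sox9cKO (-1.17, limma adjusted p 0.178). Of the 5 tested, 4 had positive log2 fold changes and 1 a negative one. Cdh17 reached the minimum for testing only through its Sox9cKO values (mean 50.4, against 8.64 in Control). Muc5ac did so only through its Control values (mean 15.5, against 6.35 in Sox9cKO). The direction of both was thus favoured by the filter. The list's sum was 756 to 1150 in Control and 1081 to 2775 in Sox9cKO, mostly Vil1 and Lgals4. Of 7 urothelial and stratified markers, 4 were in the table, with sums of 28.6 to 53.0 in Control and 13.9 to 28.3 in Sox9cKO. Endothelial markers, which lack these keratins, summed to 1283 to 29968 in Control and 4689 to 30379 in Sox9cKO. Stellate and fibroblast markers summed to 1956 to 2474 and 1987 to 3686, and leukocyte and erythroid markers to 873 to 938 and 1369 to 1687, the latter mostly Csf1r, a macrophage receptor (log2 fold change 0.92, limma adjusted p 0.0142). The 4 other leukocyte and erythroid markers tested had negative log2 fold changes and were not called. Among them Ptprc, the pan-leukocyte gene, was at 37.0, 36.2 and 19.6 in Control and 16.9, 12.3 and 1.13 in Sox9cKO. Hbb-bs, also among them, reached the minimum for testing only through its Control values (mean 14.7, against 8.76 in Sox9cKO). With 1 sample left out, Msln lost its call in 4, Cdh17 in 5 and Csf1r in 3 of 6 fits. The part of these cells in the keratin results was not tested.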

How the data were processed

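RNA from 3 Control and 3 Sox9cKO samples was sequenced. Per the labels' protocols, total RNA was depleted of ribosomal RNA and made into stranded libraries with unique molecular identifiers. Aligner, counter and the use of the identifiers are not given in the sources used here. The submitters' processing notes name DESeq2 1.36.0 and GRCm39. The deposited table gives a signal per gene and sample, gene counts divided by 1 factor per sample. All values (100%) were whole multiples of a step (tolerance 0.001 reads), which gave back the reads. The table held 25302 rows, and the fewest reads of a gene over the 6 samples was 10.

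The 6 keratins and the lists were chosen with earlier results of these data known. Genes with a mean of at least 10 were tested on log2(value + 1) with limma 3.58.1 in R 4.3.3 (intensity trend, two-sided, Benjamini-Hochberg, threshold 0.05). Named genes were the members, Sox9, up to 4 called genes a list and the 4 most abundant other keratins, the 2 genes most alike to each member, and the highest marker of each list; block-only calls, neighbours and single values beside them were chosen after their values were seen. Some listed genes are not reported here by name. Same-numbered samples, as the titles number them, deviated together (correlations 0.207, 0.472 and 0.542 across genes), so blocked values are given where a call changes. edgeR 4.0.16 and DESeq2 1.42.0 on the recovered reads, and other alternatives, are in the closing section. Transcript lengths came from GENCODE M21 (GRCm38) and promoters from RefSeq (GRCm38.p6). On simulated counts for this comparison (17153 genes), limma called 10.6%, 70.1% and 90.0% of genes changed by 1, 2 and 3 on the log2 scale. The false share of calls was 5.29% for limma, 11.3% with the block, 6.43% for edgeR and 23.9% for DESeq2. The simulated counts carried no effect of the replicate number. The share for the block is therefore not known for samples that deviate together, as these did.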

Additional observations from a re-analysis of the deposited data

How the results depend on the processing

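The log2 fold change of Krt20 stayed between 4.71 and 5.44 in the fits that each left out 1 sample and between 4.78 and 4.997 elsewhere, and it was called throughout (adjusted p at most 0.0187). Krt7 stayed positive but missed the threshold without the intensity trend (0.997, adjusted p 0.0901) and with voom weights (0.953, adjusted p 0.0502); leaving out 1 sample gave 0.800 to 1.15 (adjusted p 0.0379 to 0.153). Krt23 passed it with DESeq2 (0.649), with the limma replicate block (0.690) and with the edgeR replicate block (0.646), and leaving out 1 sample gave 0.534 to 0.802. Krt19 was not called in any setting (0.298 to 0.834 with 1 sample left out). Krt8 and Krt18 were not called in any setting. With 1 sample left out they ranged from -0.231 to 0.0783 and from -0.257 to 0.130, and with quantile normalization they stood at -0.43 and -0.26. The summed level changed sign with quantile normalization (-0.166) and ranged from -0.0989 to 0.211 with 1 sample left out; the Krt18 to Krt8 ratio ranged from -0.0355 to 0.0619. Quantile normalization moved the median of all genes from 0.036 to -0.031 and the share of higher calls from 68.4% to 60.5%.

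Over all genes 510 were called with limma, 1214 with DESeq2, 1381 with the replicate block and 1160 with edgeR and the replicate block, and 199 to 387 with 1 sample left out. Of the other keratins, against 0, the counts were 1 with pseudocount 5, without the intensity trend and with edgeR, 6 with DESeq2, 4 with either replicate block and 0 to 2 with 1 sample left out (2 without Sox9cKO replicate 3). Of the 75 tested keratin-related genes, against 2, they were 1 with no filter, with a minimum mean of 50, without the intensity trend and with voom weights, 11 with DESeq2, 12 with the replicate block, 10 with edgeR and the replicate block and 0 to 2 with 1 sample left out (0 without Control replicate 1 or 3 or Sox9cKO replicate 2 or 3). Among 23 other named genes, 347 of 410 values kept direction and side of the threshold; the 10 that changed sign, all with 1 sample left out, belonged to Rpl28 (-0.186 to 0.0626), Dnttip2 (-0.160 to 0.0711), Ppie (-0.292 to 0.0767) and Actb (-0.242 to 0.135), which were not called in any of these fits. The cause of these changes was not tested. The replicate block changed no other call of the 6 keratins.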
